A study of Homo sapiens with 12 samples.

Results

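Human cardiomyocytes given endothelin-1 and sacubitrilat together were compared with cardiomyocytes given vehicle. The comparison used 6 of the 12 libraries of the series, chosen by their titles: 3 cultures that received 10 nM endothelin-1 plus 16 µM sacubitrilat and 3 that received dimethyl sulfoxide as vehicle, each for 48 h. The other 6 libraries, 3 with 10 nM endothelin-1 alone and 3 with 16 µM sacubitrilat alone, are used below as levels and as a separate set of libraries. Groups follow the titles, but 1 further description line of each endothelin-1 and sacubitrilat library gives the opposite compound, and every value given below for 1 of these compounds alone would belong to the other if that line were the true one. All 12 came from WTC-mEGFP-ACTN2-cl85, 1 clone of an established induced pluripotent stem cell line with a green fluorescent tag on 1 allele of ACTN2 (the alpha-actinin of sarcomeres), a tag that vehicle cultures carry too. The cells were differentiated with a GSK3 inhibitor (CHIR99021) followed by a Wnt secretion inhibitor (IWP-2) and enriched with lactate. Cultures within a group are labelled as biological replicates. What was measured was the 3′ end of polyadenylated RNA, counted per gene.

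Endothelin-1 is a peptide that acts on Gq-coupled receptors of cardiomyocytes and drives hypertrophic growth, with raised natriuretic peptide and beta-myosin heavy chain expression as its textbook signature. Sacubitrilat is the active form of sacubitril and inhibits neprilysin, a membrane peptidase that degrades natriuretic peptides and also endothelin-1. Natriuretic peptides act through guanylyl cyclase receptors and cyclic GMP, a pathway that opposes hypertrophic signalling in cardiomyocytes.

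The 6 compared libraries were shallow, with 87281, 158791 and 134950 total counts for combined replicates 1 to 3 and 316932, 80844 and 170644 for vehicle replicates 1 to 3. The 6 single-compound libraries were on average 10.1 times deeper (1268308 to 1953122), so between them and the 6 depth and treatment cannot be told apart. A level of 3 counts, taken as the floor of detection, stood at 9.47 to 37.1 CPM (counts scaled to the library total) in the 6. Combined replicate 1 and vehicle replicate 2, the 2 libraries under 100000 counts, stood apart from the other 4. Across tested genes the log2 CPM of the other 4 had Pearson r of 0.856 to 0.932 among themselves, while these 2 had r of 0.691 to 0.827 with the other 4 and 0.813 with each other. With all 6 thinned to 80000 counts the values were 0.805 to 0.873, 0.675 to 0.815 and 0.828. The common biological coefficient of variation was 0.267 over the 6, 0.133 without those 2 and 0.0460 in the single-compound libraries. Cardiomyocyte markers were abundant in all 6, with a summed level of 20276, 15685 and 13690 CPM in the combined libraries against 18019, 8937 and 15995 CPM in the vehicle libraries. Fibroblast markers summed to 2160, 4774 and 4683 CPM in the combined libraries against 5373, 2035 and 4184 CPM in the vehicle libraries, lowest in the 2 libraries under 100000 counts. Endothelial markers summed to 57.3, 33.1 and 14.8 CPM in the combined libraries against 34.7, 37.1 and 35.2 CPM in the vehicle libraries. Of these markers CDH5, KDR and VWF had 0 counts in all 6.

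With both compounds against vehicle, no gene passed the adjusted threshold, and the genes nearest to it were a phosphatidylinositol transfer protein gene (PITPNM1, higher) and metallothionein (MT2A, lower). The beta-myosin heavy chain gene MYH7 was at 3018 ± 951 CPM in combined cultures and 1403 ± 251 CPM in vehicle cultures (SD, n = 3 each), with no overlap between groups. Insulin-like growth factor binding proteins (IGFBP3, IGFBP5), thymosin beta-4 (TMSB4X) and the ferritin heavy chain (FTH1) lay lower in every combined library than in any vehicle library. The edgeR quasi-likelihood test called 0 of 2372 tested genes (0.0%) at an adjusted p under 0.05, and 205 genes (8.64%) had an unadjusted p under 0.05. On the same genes DESeq2 called 2 (MT2A and FTH1), limma-voom 0 and limma-voom with quality weights 1 (PITPNM1). Levels in the combined libraries were all above those in the vehicle libraries for 167 genes (7.04%) and all below for 168 (7.08%). The median 95% interval of a log2 fold change reached 0.92 to either side for genes under 100 CPM and 0.65 for genes of 500 to 2000 CPM, a 1.57-fold difference. For the 40 genes of 2000 CPM or more it was wider again, at 0.76. These are medians over genes and no limit of detection, and no gene of any size passed the adjusted threshold. In these bulk samples fewer cells of a type and less RNA per cell cannot be told apart.

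MT2A, a metallothionein that binds zinc and copper and is induced by metals and glucocorticoids, is shown with its promoter because it had the smallest p among lower genes and belongs to a family with a defined metal response element. The sequences below run from 250 bases before to 50 after the RefSeq gene start (GRCh38.p14, plus strand of chromosome 16) at chr16:56608334-56608633 for MT2A and chr16:56682220-56682519 for its neighbour MT1X. Capitals mark TGCACNC or TGCGCNC, the core of the metal response element, on either strand.
MT2A: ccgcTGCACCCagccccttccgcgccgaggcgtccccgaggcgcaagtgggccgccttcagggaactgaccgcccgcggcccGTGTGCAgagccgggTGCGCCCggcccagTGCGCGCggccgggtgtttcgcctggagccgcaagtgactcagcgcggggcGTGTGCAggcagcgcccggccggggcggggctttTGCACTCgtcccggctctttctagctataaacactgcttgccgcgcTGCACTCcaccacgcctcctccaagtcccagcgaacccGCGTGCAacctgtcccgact
MT1X: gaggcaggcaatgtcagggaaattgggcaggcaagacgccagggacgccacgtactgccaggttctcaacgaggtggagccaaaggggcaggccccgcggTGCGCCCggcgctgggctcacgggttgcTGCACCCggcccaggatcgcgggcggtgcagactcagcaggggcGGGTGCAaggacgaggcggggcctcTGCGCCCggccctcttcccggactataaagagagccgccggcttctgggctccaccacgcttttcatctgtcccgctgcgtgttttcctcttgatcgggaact
MT2A held 8 matches (5 on the plus strand and 3 on the minus strand) and MT1X held 4 (3 plus, 1 minus). Of 35116 RefSeq promoter windows of this length, 29.6% held at least 1 match, 0.601% at least 4 and 0.0199% (7 windows) at least 8. A match describes the letters only.

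MT2A (chromosome 16, 56608199 to 56609497, plus strand, GRCh38) had 34.4, 50.4 and 37.1 CPM in the combined libraries, against 134, 334 and 234 CPM in the vehicle libraries. Every combined library lay below every vehicle library, and vehicle replicate 2 was the highest of the 6. Combined replicates 1 to 3 rested on 3, 8 and 5 counts, the first of them at the floor, so the size of the fold is uncertain. The log2 fold change was -2.39 ± 0.42 (SE, 95% interval -3.31 to -1.46, edgeR adjusted p = 0.145). The level was 32.7 ± 20.2 CPM with endothelin-1 alone and 12.7 ± 10.9 CPM with sacubitrilat alone (SD, n = 3 each), so all 3 treated groups stood below vehicle. The other metallothionein transcripts did not all follow, in values read after those of MT2A. MT1E had 11.5, 14.2 and 14.8 CPM in combined libraries, against 45, 148 and 29.3 CPM in vehicle libraries. MT1X had 34.4, 37.8 and 37.1 CPM in combined libraries, against 9.47, 37.1 and 35.2 CPM in vehicle libraries. Both were too low to be tested, and reads of these near-identical genes may be split between them. FTH1, the heavy chain of the iron store ferritin, had 383, 383 and 424 CPM in the combined libraries, against 1133, 3868 and 705 CPM in the vehicle libraries. Its log2 fold change was -2.22 ± 0.52 (edgeR adjusted p = 0.418), and without the 2 libraries under 100000 counts it was -1.22 ± 0.24, with the vehicle replicate at 3868 CPM no longer in the fit. Reads of FTH1 may be split with copies of the gene, which was not tested. The pseudogene FTH1P2 had a log2 fold change of 1.02. The noncoding ENSG00000293060 had 43.9, 41.7 and 47.9 CPM in combined libraries, against 133, 452 and 94.2 CPM in vehicle libraries. The ferritin light chain FTL had 710, 751 and 882 CPM in combined libraries and 784, 959 and 919 CPM in vehicle libraries, a log2 fold change of -0.19 ± 0.25.

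Among higher genes, PITPNM1 (chromosome 11, 67491768 to 67506263, minus strand), whose product moves phosphatidylinositol between membranes and so serves phospholipase C signalling, was the most uniform. It had 286, 283 and 296 CPM in the combined libraries, against 91.5, 86.6 and 93.8 CPM in the vehicle libraries. These levels rest on 110 summed counts in the combined and 52 in the vehicle libraries. The log2 fold change was 1.63 ± 0.29 (95% interval 0.99 to 2.27, edgeR adjusted p = 0.145), a 3.09-fold difference. With endothelin-1 alone the level was 85.6 ± 12.5 CPM and with sacubitrilat alone 60.1 ± 3.26 CPM, against 90.6 ± 3.67 CPM with vehicle. CHID1, a chitinase-domain lysosomal protein gene, had 286, 246 and 215 CPM in combined libraries, against 94.7, 99.0 and 105 CPM in vehicle libraries, with a log2 fold change of 1.29 ± 0.30 (edgeR adjusted p = 0.418). MFGE8, a secreted glycoprotein that bridges apoptotic cells to phagocytes, had 1713, 938 and 941 CPM in combined libraries, against 379, 656 and 598 CPM in vehicle libraries. FSTL3, a follistatin-like protein that binds activin and myostatin, had 218, 157 and 259 CPM in combined libraries, against 69.4, 111 and 99.6 CPM in vehicle libraries. For both the groups did not overlap and the edgeR adjusted p was 0.418. IGLC2 and the pseudogene GAPDHP1, the remaining pair among the 6 higher genes of smallest p, had mean levels of 88.5 and 110 CPM in combined libraries against 30.5 and 45.2 CPM in vehicle libraries. Reads of GAPDHP1 may be split with GAPDH, which was not tested. GAPDH had 20431, 15988 and 19102 CPM in combined libraries and 10740, 20124 and 13733 CPM in vehicle libraries.

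**Figure D1:**
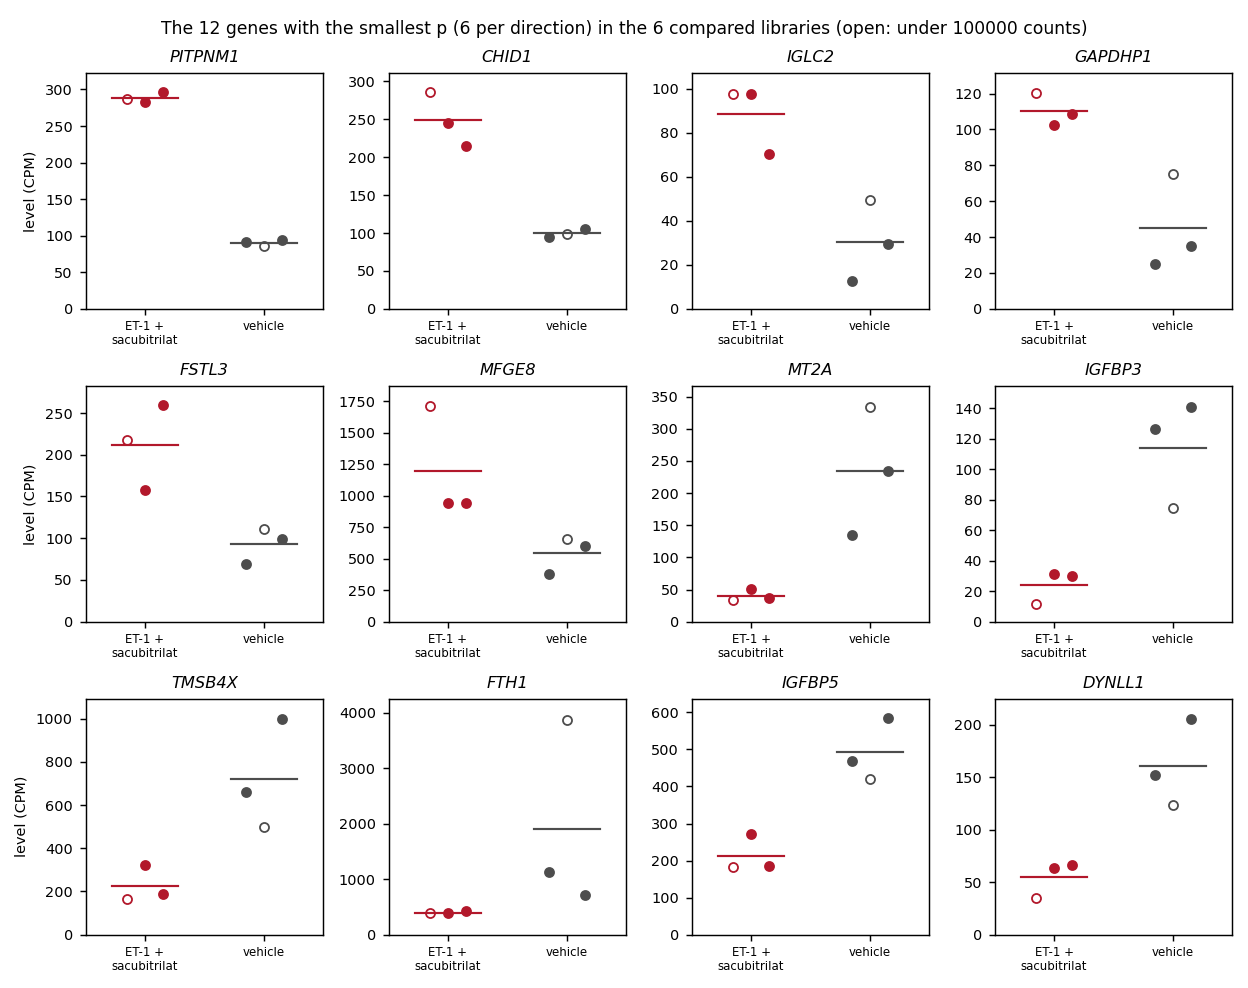
Level in CPM of the 6 higher and 6 lower genes of smallest p in the 3 combined libraries (left) and the 3 vehicle libraries (right). Points are libraries, lines are group means, and open points are the 2 libraries under 100000 counts; in all 12 genes the groups do not overlap, and FTH1 in vehicle replicate 2 (3868 CPM) lies far above the rest.

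The lower genes with the smallest p included secreted binding proteins and cytoskeletal genes. IGFBP3 had 11.5, 31.5 and 29.6 CPM in combined libraries, against 126, 74.2 and 141 CPM in vehicle libraries, and its log2 fold change was -2.20 ± 0.46 (edgeR adjusted p = 0.333). IGFBP5 had 183, 271 and 185 CPM in combined libraries, against 470, 421 and 586 CPM in vehicle libraries, with a log2 fold change of -1.21 ± 0.29 (edgeR adjusted p = 0.418). Both products bind insulin-like growth factors outside the cell. TMSB4X, which sequesters actin monomers, had 166, 324 and 188 CPM in combined libraries, against 659, 499 and 998 CPM in vehicle libraries, and its log2 fold change was -1.65 ± 0.35 (edgeR adjusted p = 0.333). DYNLL1, a dynein light chain gene, had 34.4, 63 and 66.7 CPM in combined libraries, against 151, 124 and 205 CPM in vehicle libraries. In combined replicate 1 IGFBP3 rested on 1 count, under the floor, and DYNLL1 on 3 counts, at the floor, so their folds are uncertain.

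The hypertrophy genes that endothelin-1 is known for were uneven. MYH7 (chromosome 14, 23412738 to 23435718, minus strand) had 4062, 2793 and 2201 CPM in combined libraries, against 1559, 1113 and 1538 CPM in vehicle libraries. Its log2 fold change was 1.08 ± 0.33 (95% interval 0.37 to 1.79, edgeR adjusted p = 0.486). The level was 3150 ± 153 CPM with endothelin-1 alone and 1145 ± 105 CPM with sacubitrilat alone, so by the titles the combined mean was nearer to the endothelin-1 mean, and nearer to the sacubitrilat mean if the other description line holds. MYH6, the alpha-myosin gene next to it, had 980, 608 and 674 CPM in combined libraries and 822, 656 and 897 CPM in vehicle libraries, a log2 fold change of -0.10 ± 0.29 (95% interval -0.73 to 0.54). Reads of the paired myosin genes may be split between them. NPPA, which encodes atrial natriuretic peptide, had 516, 1077 and 919 CPM in combined libraries and 855, 210 and 615 CPM in vehicle libraries. The groups overlapped, with a log2 fold change of 0.50 ± 0.44 (95% interval -0.46 to 1.47, edgeR adjusted p = 0.750), while the single-compound means were 3836 CPM with endothelin-1 and 1644 CPM with sacubitrilat. NPPB, the gene of B-type natriuretic peptide, was too low to be tested, with 3, 7 and 8 counts in combined libraries and 38, 2 and 14 counts in vehicle libraries. Its level was 560 ± 11 CPM with endothelin-1 alone and 676 ± 89.9 CPM with sacubitrilat alone, far above the 45.9 ± 12.6 CPM of combined and 75.6 ± 47.9 CPM of vehicle libraries.

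The actin and light chain genes of the panel overlapped between the groups. ACTC1, cardiac alpha-actin, had 309, 775 and 630 CPM in combined libraries and 2360, 247 and 1559 CPM in vehicle libraries, with a log2 fold change of -1.34 ± 0.61 (edgeR adjusted p = 0.569). Its lowest value was that of vehicle replicate 2. ACTA1, the skeletal actin gene of the fetal programme, had 11.5, 113 and 59.3 CPM in combined libraries and 136, 37.1 and 111 CPM in vehicle libraries. ACTA2, smooth muscle actin, had a log2 fold change of -0.30 ± 0.41, the stretch-responsive ANKRD1 -0.27 ± 0.42, the atrial light chain MYL7 0.26 ± 0.41 and the troponin T gene TNNT2 0.21 ± 0.35. For these 4 the edgeR adjusted p was 0.837, 0.853, 0.862 and 0.871. MYL2, RCAN1 (a calcineurin target) and CCN2 (a growth factor of the matrix) were not tested. MYL2 had 1, 2 and 1 counts in combined libraries and 7, 0 and 1 in vehicle libraries, RCAN1 had 3, 4 and 4 counts in combined libraries and 10, 0 and 7 in vehicle libraries. CCN2 had 0, 7 and 3 counts in combined libraries and 33, 4 and 14 in vehicle libraries, and its CPM did not overlap.

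**Figure D2:**
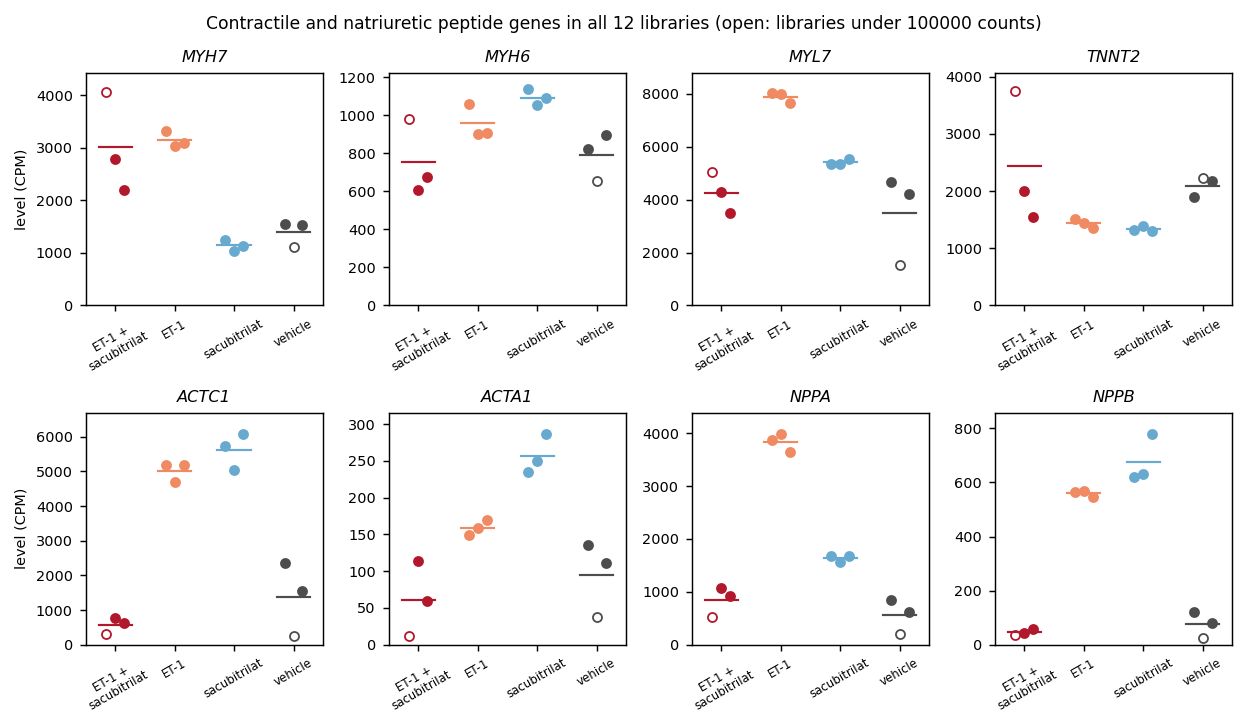
Level in CPM of 8 contractile and natriuretic peptide genes in cultures given both compounds, endothelin-1 (ET-1), sacubitrilat or vehicle. Points are libraries, lines are means of 3, and open points are the 2 libraries under 100000 counts; combined MYH7 averages 3018 CPM and endothelin-1 MYH7 3150 CPM, whereas the combined libraries of ACTC1 and NPPB all lie below those of both single compounds.

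The targets of the compounds themselves were near the floor in the 6 libraries. MME, which encodes neprilysin, had 0, 2 and 1 counts in combined libraries and 3, 1 and 2 in vehicle libraries. EDNRA, the endothelin receptor of cardiomyocytes, had 4, 3 and 2 counts in combined libraries and 12, 0 and 6.5 in vehicle libraries. The receptor gene EDNRB had 1 count in all, from a combined library. NPR3, the natriuretic peptide clearance receptor, had 2 counts, both from vehicle libraries. The ligand gene EDN1 had 1, 1 and 0 counts in combined libraries and 2, 0 and 0 in vehicle libraries. In the deeper single-compound libraries EDNRA was at 98.5 CPM with endothelin-1 and 102 CPM with sacubitrilat, and MME at 4.07 CPM with endothelin-1 and 4.64 CPM with sacubitrilat. Of 31 genes of the natriuretic peptide, neprilysin and endothelin system, 3 were tested and none was called by edgeR (0 at an unadjusted p under 0.05). Another tested member was GUCY1A1, a subunit of soluble guanylyl cyclase, at 51.6, 132 and 92.6 CPM in combined libraries and 232, 43.3 and 199 CPM in vehicle libraries.

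The levels of some abundant genes followed the total count of the library, and across the 6 libraries 18 of 2372 tested genes had levels in exactly the order of the totals and 26 in exactly the reverse order. MALAT1, a nuclear-retained noncoding RNA, had 813, 1392 and 1034 CPM in combined libraries and 3204, 847 and 2619 CPM in vehicle libraries, against 7945 CPM with endothelin-1 and 7398 CPM with sacubitrilat in the deep libraries. The giant sarcomere gene TTN had 968, 1331 and 1097 CPM in combined libraries and 2698, 557 and 1995 CPM in vehicle libraries, an order that is exactly that of the 6 totals, as is that of ACTC1. Ribosomal protein gene RPL41 ran the other way, with 7822, 5356 and 4657 CPM in combined libraries and 2142, 4752 and 3146 CPM in vehicle libraries, and 1140 and 1339 CPM in the endothelin-1 and sacubitrilat libraries. With the log2 total count as a covariate, chosen after the values were seen, edgeR called 12 of 2372 genes (0.506%), 5 higher and 7 lower. TTN then had a log2 fold change of 0.00 ± 0.25 and ACTC1 -0.34 ± 0.28. The called genes were PITPNM1 (1.67 ± 0.30, edgeR adjusted p = 0.0141), NPPA (1.15 ± 0.24, edgeR adjusted p = 0.0356), the tetraspanin gene CD81, the actin-associated SYNPO and the protocadherin gene PCDH7 on the higher side. On the lower side they were MT2A (-2.56 ± 0.35, edgeR adjusted p = 0.00151), FTH1, TMSB4X, TXNIP (a thioredoxin inhibitor), B2M (the light chain of MHC class I), DCBLD2 and ENSG00000293060. In that fit MYH7 had a log2 fold change of 1.13 ± 0.28 (edgeR adjusted p = 0.0901).

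**Figure D3:**
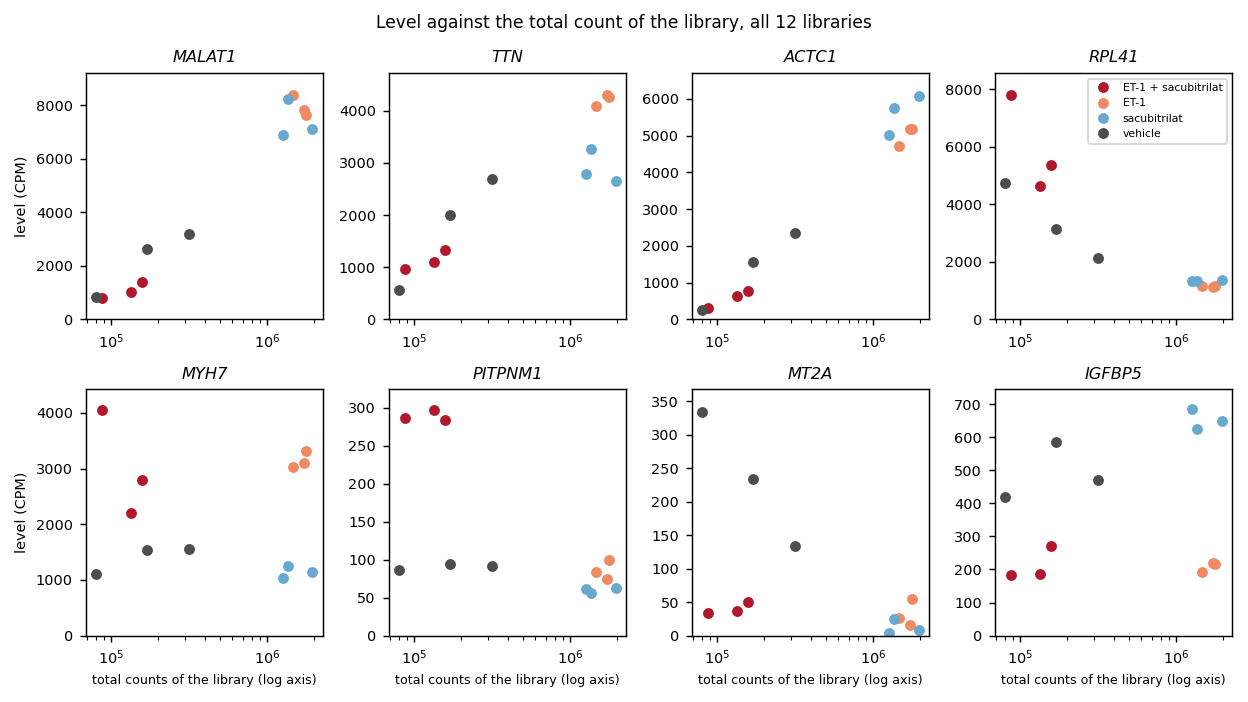
Level in CPM of 8 genes against the total count of the library (log axis) in all 12 libraries, coloured by group; points are libraries. MALAT1, TTN and ACTC1 are mostly higher and RPL41 mostly lower in deeper libraries. For PITPNM1 (286, 283 and 296 CPM in combined libraries) and MYH7 the combined and vehicle libraries do not overlap. Totals run from 87281 to 158791 in combined and from 80844 to 316932 in vehicle libraries.

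Without the 2 libraries under 100000 counts, which leaves 2 against 2, edgeR called 151 of 2719 genes: 69 higher (2.54%) and 82 lower (3.02%). Of the 125 also tested in 6 libraries, all 125 had the same sign there, 77 had an unadjusted p under 0.05 and 50 did not overlap, but the 4 libraries are among the 6. Both vehicle libraries of this fit (316932 and 170644 counts) were deeper than both combined ones (158791 and 134950), so depth and treatment cannot be told apart in it. For 82.6% of the 69 higher and 82.9% of the 82 lower genes, the mean of the deep single-compound libraries lay beyond vehicle on the side away from the combined cultures, against 65.2% and 64.7% of the genes not called. The pair left out had nearly equal totals (87281 and 80844), and it stood in the same order as the call for 44 of the 69 higher genes (63.8%) and 55 of the 82 lower genes (67.1%). Among genes not called the share was 51.4% on the higher side and 60.7% on the lower side, so that of the lower calls was near background, in a description of 1 library against 1. The lower calls included sarcomere and calcium-handling genes: ACTC1 (-1.50 ± 0.23, edgeR adjusted p = 1.8e-07), TTN (-0.97 ± 0.22), PLN, the inhibitor of the calcium pump (-1.84 ± 0.37), RYR2, the calcium release channel (-1.41 ± 0.39), and SLC8A1, the sodium-calcium exchanger (-2.15 ± 0.56). For PLN vehicle replicate 2 had 0 CPM, below the 34.4 CPM of combined replicate 1. Also lower were TMSB4X (-1.65 ± 0.26), the actin-binding PFN1 (-1.10 ± 0.23), the intermediate filament gene VIM (-1.10 ± 0.23) and the matrix proteoglycan VCAN (-1.52 ± 0.31). CCN2, tested in this fit, was lower as well (-1.49 ± 0.48, edgeR adjusted p = 0.0406). Higher calls included MYH7 (0.69 ± 0.22, edgeR adjusted p = 0.0425), PITPNM1 (1.63 ± 0.32), the cytokine TGFB1 (1.38 ± 0.29), RPL39 (1.01 ± 0.24) and the respiratory complex I gene NDUFV1 (0.90 ± 0.23). In a fit of all 12 libraries, whose spread is set largely by the deep ones, 20 of 10923 genes were called (0.183%), 11 higher and 9 lower. Of the 20, 16 were also among the 151, but the 4 libraries are among the 12. The 20 included PITPNM1, FSTL3, MFGE8, CHID1 and SYNPO on the higher side and IGFBP3, IGFBP5, TMSB4X and FTH1 on the lower side, while MYH7 had an edgeR adjusted p of 0.0527.

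The 6 single-compound libraries share no library with this comparison. Endothelin-1 against sacubitrilat in them, chosen after the values were seen, is a different contrast of the same genes. It holds no vehicle, and sacubitrilat is its reference rather than part of the treatment. In these 6, edgeR called 1198 of 11964 genes higher with endothelin-1 (10.0%) and 906 lower (7.57%). Of the 91 genes higher with both compounds at an unadjusted p under 0.05, 89 were tested there, 34 were called higher with endothelin-1 (38.2%) and 0 lower. Among the 1067 tested genes that were higher at a larger p, 206 were called higher (19.3%) and 88 lower (8.25%). Of the 114 genes lower with both compounds at an unadjusted p under 0.05, 35 were called lower with endothelin-1 (30.7%) and 18 higher (15.8%), against 183 lower (16.7%) and 158 higher (14.4%) of 1098 at a larger p. These directions rest on the titles of the single-compound libraries and would turn round under the other description line. An unadjusted p under 0.05 was reached by 8.11% of tested genes under 100 CPM and 17.5% of those at 2000 CPM or more. The part of abundance in the shares above was not tested.

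Among the 34, the 4 with the largest difference between the single compounds were MYH7, ENO3, FABP3 and NEAT1. MYH7 had a log2 fold change of 1.58 ± 0.07 for endothelin-1 over sacubitrilat (edgeR adjusted p = 4.97e-20). ENO3, the muscle enolase, had 401, 356 and 422 CPM in combined libraries, against 289, 186 and 223 CPM in vehicle libraries. It had 424 ± 14.4 CPM with endothelin-1 and 156 ± 3.65 CPM with sacubitrilat. FABP3, the heart fatty acid binding protein, had 223, 189 and 144 CPM in combined libraries, against 101, 37.1 and 105 CPM in vehicle libraries, and 292 ± 17.6 CPM with endothelin-1 and 112 ± 21.5 CPM with sacubitrilat. HRC, a calcium-binding protein of the sarcoplasmic reticulum, had 687, 327 and 252 CPM in combined libraries, against 177, 247 and 176 CPM in vehicle libraries. In each of these 3 genes every combined library lay above every vehicle library. NEAT1, the noncoding RNA of paraspeckles, had 2796, 1707 and 1375 CPM in combined libraries, against 1078, 1014 and 1037 CPM in vehicle libraries. HSPG2, the basement membrane proteoglycan perlecan, had 481, 296 and 378 CPM in combined libraries, against 196, 247 and 264 CPM in vehicle libraries, and a log2 fold change of 1.17 ± 0.07 for endothelin-1 over sacubitrilat. FSTL3, MFGE8, SYNPO, TGFB1, COX5A and PITPNM1 were also among the 34. Higher here means above sacubitrilat, not above vehicle. Among the genes named above, the endothelin-1 mean was below the vehicle mean for HRC (173 against 200 CPM), SYNPO (393 against 427 CPM), TGFB1 (68.9 against 166 CPM) and PITPNM1. It was near vehicle for MFGE8 (548 against 544 CPM) and above vehicle for MYH7, ENO3, FABP3, NEAT1, HSPG2, FSTL3 and COX5A. The rest of the 34 also lay on both sides, as with SELENOM below (164 against 380 CPM) and SLC2A3 above (95.1 against 54.8 CPM). Depth and treatment cannot be told apart between these groups. IGFBP5 had the largest difference among the 35 genes lower in both comparisons, -1.50 ± 0.07 for endothelin-1 over sacubitrilat (edgeR adjusted p = 4e-18). Its level was 210 ± 15.2 CPM with endothelin-1 and 652 ± 30.4 CPM with sacubitrilat. IGFBP3, the growth factor MDK, the tubulin TUBB and the chaperone CALR were in the same group. Lower here means below sacubitrilat, not below vehicle. The endothelin-1 mean was above the vehicle mean for IGFBP3 (181 against 114 CPM) and CALR (715 against 559 CPM). For IGFBP5 (210 against 492 CPM), MDK (598 against 702 CPM) and TUBB (943 against 1042 CPM) it was below. MT2A was among the 18 genes of opposite direction, lower with both compounds than with vehicle but 1.54 ± 0.34 higher with endothelin-1 than with sacubitrilat on the log2 scale (edgeR adjusted p = 0.00103).

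**Figure D4:**
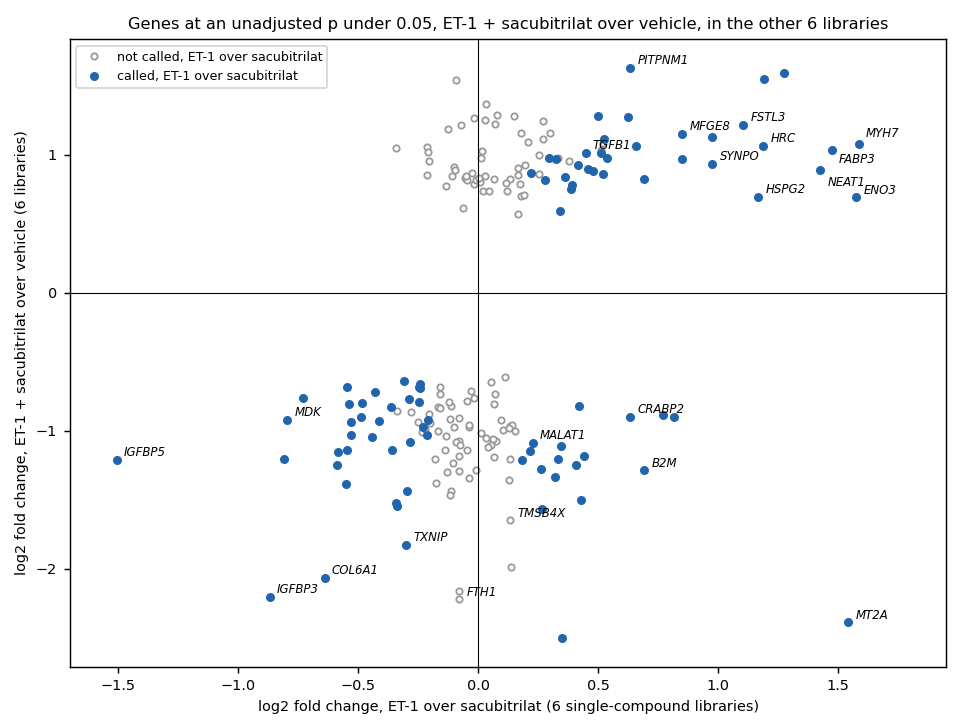
Log2 fold change of both compounds over vehicle (vertical axis) against that of endothelin-1 over sacubitrilat in the 6 single-compound libraries (horizontal axis), for genes with an unadjusted p under 0.05 in the comparison of both compounds with vehicle. Points are genes and filled points were called in the single-compound libraries; of the filled points above 0 on the vertical axis all 34 lie to the right, and of those under 0, 35 lie to the left and 18 to the right.

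The 41 gene lists were read as counts and medians, and edgeR called none of their 439 tested genes in the 6 libraries. The median log2 fold change of all 2372 tested genes was -0.01. Of these genes 7.04% lay higher and 7.08% lower without overlap, shares to set beside the list counts below. Among 10 tested thick filament genes the median was 0.40, with 1 gene not overlapping and higher (MYH7) and 1 lower (the regulatory light chain MYL12A, at 80.2, 97.6 and 81.5 CPM in combined libraries, against 174, 148 and 223 CPM in vehicle libraries). Among 10 thin filament genes it was 0.05, with the slow skeletal troponin I gene TNNI1 higher in every combined library, at 4423, 3388 and 3698 CPM, than in the vehicle libraries, at 3097, 2313 and 2977 CPM. The atrial light chain MYL4 had 20085, 9938 and 7629 CPM in combined libraries and 4645, 14417 and 7038 CPM in vehicle libraries, a log2 fold change of 0.55 ± 0.49. Of 12 tested Z-disc and costamere genes none separated the groups. Among 10 calcium-handling genes the median was -0.49. Without overlap, 1 of them lay higher (HRC) and 3 lower, among these the ryanodine receptor partner FKBP1A. The cardiac transcription factor GATA4 had 34.4, 56.7 and 44.5 CPM in combined libraries, against 139, 86.6 and 82.0 CPM in vehicle libraries, the sole separated gene of 5 tested in its list.

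Of 21 tested targets of the actin-regulated factors SRF, MRTF and YAP, 6 lay lower without overlap (CNN2, ACTB, PFN1, CNN3, TAGLN2 and ACTG1), 1 higher (MYL6), and the median was -0.27, where 7.08% of all tested genes lay lower and 7.04% higher without overlap. PFN1, profilin, had 435, 699 and 760 CPM in combined libraries, against 1406, 810 and 1746 CPM in vehicle libraries, and beta-actin (ACTB) had 1054, 1733 and 1743 CPM in combined libraries, against 2259, 1749 and 2432 CPM in vehicle libraries. MYL6, a non-muscle light chain, had 5213, 3017 and 2990 CPM in combined libraries, against 1836, 2264 and 2042 CPM in vehicle libraries. Among 25 matrix and TGF-beta targets the median was -0.32, with LAMB1, BGN and COL4A1 separated and higher, and TGFBI and COL6A1 separated and lower, to be read against the same shares of all genes. The collagen gene COL1A1, high in fibroblasts, had 481, 1959 and 2082 CPM in combined libraries and 2127, 767 and 1617 CPM in vehicle libraries. COL1A1 is itself a member of the fibroblast marker sum, so that both were lowest in the same 2 libraries is partly built in. The part of fibroblast content in the matrix values was not tested.

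In metabolism, the 59 tested nuclear genes of the respiratory chain had a median of 0.06 with 4 genes separated in each direction. This is near the shares over all tested genes, 7.04% higher and 7.08% lower. Without the 2 libraries under 100000 counts 4 of 63 tested in this list were called higher (NDUFS8, COX7A2, NDUFV1 and NDUFS5) and 0 lower. In that fit 2.54% of all tested genes were called higher and 3.02% lower. The 13 mitochondrially encoded mRNAs had a median of -0.33 with MT-CO3 separated. MT-CO3 had 4431, 5167 and 5083 CPM in combined libraries, against 8040, 10242 and 7608 CPM in vehicle libraries. MT-ND4, a complex I subunit, had 43540, 69588 and 71899 CPM in combined libraries and 84172, 29780 and 69307 CPM in vehicle libraries. Of 7 fatty acid genes 2 were separated, both higher (FABP3 and ACADVL), with a median of 0.32, and of 15 glycolysis genes 1 was (ENO3), with a median of 0.07. Cholesterol synthesis genes (8 tested, median 0.25) and hypoxia genes (7, median -0.05) held none. Of 7 creatine kinase and ATP shuttle genes SLC25A6, an adenine nucleotide carrier, was separated and higher.

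Of 79 cytosolic ribosomal protein genes 15 lay lower and 4 higher without overlap, with a median of -0.14, and of 28 translation factors 7 lay lower and 2 higher, with a median of -0.18. Over all tested genes 7.04% lay higher and 7.08% lower without overlap. Without the 2 libraries under 100000 counts 4 of 79 ribosomal protein genes were called higher (RPL28, RPS9, RPL39 and RPL41) and 0 lower. In that fit 2.54% of all tested genes were called higher and 3.02% lower, and depth and treatment cannot be told apart. The ribosomal protein median stayed below 0 there (-0.07), and no translation factor was called. RPL39, with the highest log2 fold change of the ribosomal protein genes, had 7260, 5272 and 5209 CPM in combined libraries, against 2651, 3849 and 2539 CPM in vehicle libraries (log2 fold change 0.98 ± 0.32). Pseudogene copies make single ribosomal protein values uncertain. Among 9 endoplasmic reticulum chaperones PDIA3 and CALR were separated and lower, and all 9 log2 fold changes were below 0, from -1.38 to -0.06. HSPA5, the chaperone most used as a marker of the unfolded protein response, had 275, 198 and 198 CPM in combined libraries and 227, 247 and 214 CPM in vehicle libraries. The lists for cytosolic heat shock proteins (16 tested), the ATF4 response (7), p53 targets (5) and Gq and calcineurin signalling (5) held no separated gene. Among 3 tested immediate early genes KLF6 and IER3 were separated and lower, with IER3 at 80.2, 75.6 and 74.1 CPM in combined libraries, against 136, 136 and 147 CPM in vehicle libraries. In the interferon and antigen presentation list B2M and BST2 were separated and lower of 9 tested, with B2M at 126, 94.5 and 119 CPM in combined libraries, against 155, 544 and 193 CPM in vehicle libraries. Among 15 ferritin, metallothionein and antioxidant genes GSTP1, SOD1 and GPX4 were separated and higher, and PRDX1, MT2A and FTH1 separated and lower. Of 23 proteasome and ubiquitin genes 3 were separated, all lower, and of 6 cell cycle genes TUBB was. Without the 2 libraries under 100000 counts some medians changed sign, as for the interferon list (0.37, against -0.52 in 6 libraries). The median of the natriuretic and hypertrophy markers was -0.51 over 16 tested genes there, against 0.22 over 12 in 6 libraries, so the tested members differed too.

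**Figure D5:**
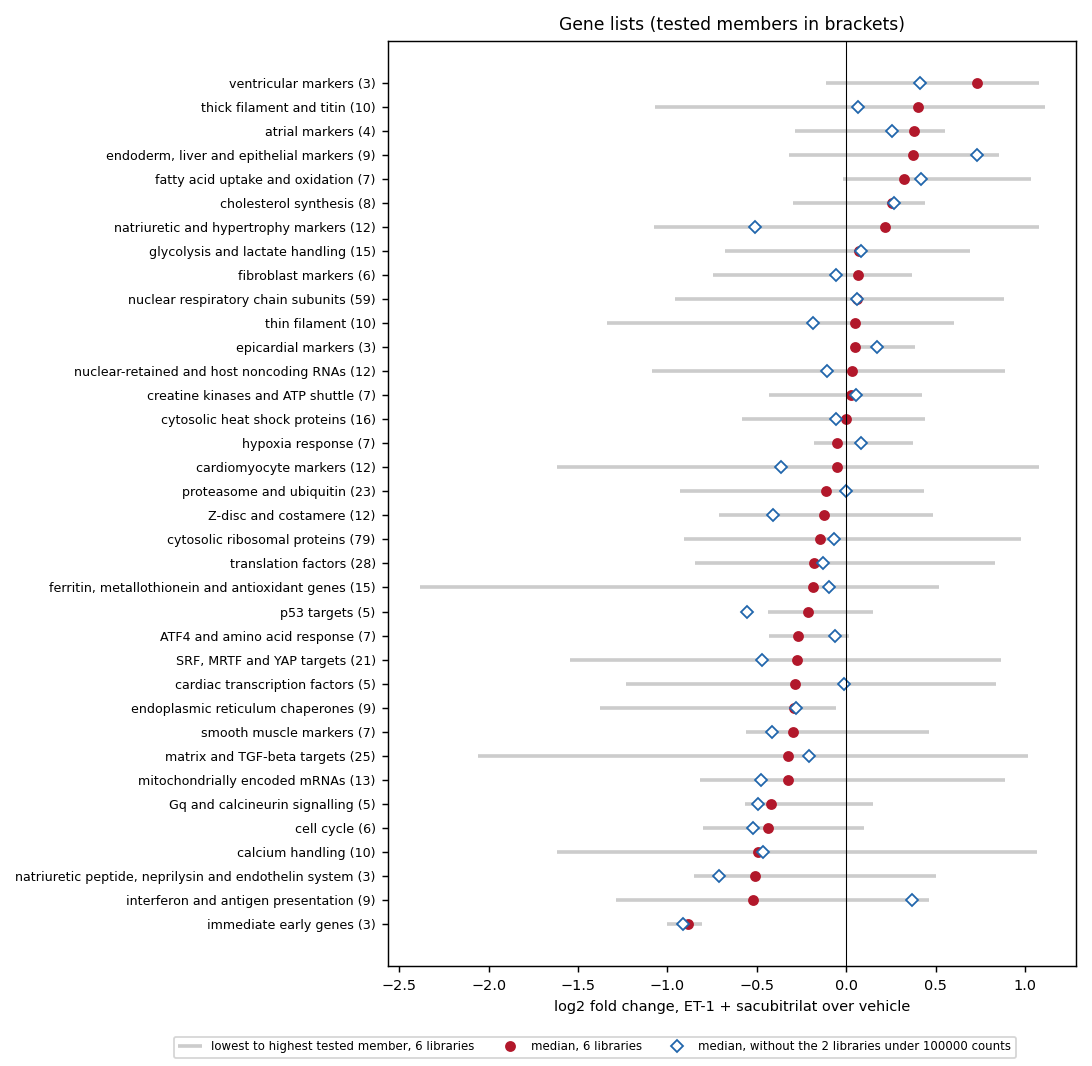
Median log2 fold change of both compounds over vehicle for the 36 lists with at least 3 tested members (number tested in brackets), from 6 libraries (filled circles) and without the 2 libraries under 100000 counts (open diamonds); grey lines run from the lowest to the highest member. The 6-library medians run from -0.89 (immediate early genes) to 0.73 (ventricular markers), and the grey lines cross 0 for all lists but the immediate early genes and endoplasmic reticulum chaperones, below 0, and the epicardial markers, above 0.

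Among markers of other cell types in the 6 libraries, of 6 tested fibroblast, 7 smooth muscle, 3 epicardial and 9 endoderm and epithelial markers none was without overlap, and no endothelial or pluripotent marker was abundant enough to be tested. Without the 2 libraries under 100000 counts edgeR called the fibroblast gene DCN lower and the liver genes HNF4A and APOA1 higher. Depth and treatment cannot be told apart in that fit. Vehicle replicate 2, left out there, had 186 CPM of HNF4A and 161 CPM of APOA1, above every combined library. It had 12.4 CPM of DCN, below every combined library. The endoderm and epithelial median was 0.73 in that fit, against 0.37 in 6 libraries. With all 12 libraries TFPI2, a member of the same list, was called lower. The endoderm and epithelial list summed to 4123, 7683 and 8801 CPM in combined libraries and 6937, 6621 and 7439 CPM in vehicle libraries. A few transcripts were high in vehicle libraries, mostly in vehicle replicate 2, and were noticed after the values were seen. TFPI2, a protease inhibitor, had 0 counts in each combined library and 51, 63 and 6 counts in vehicle libraries, or 161, 779 and 35.2 CPM. STC2, a secreted glycoprotein, had 11.5, 25.2 and 14.8 CPM in combined libraries, against 129, 223 and 41 CPM in vehicle libraries, and DCBLD2 had 0, 31.5 and 14.8 CPM in combined libraries, against 72.6, 223 and 76.2 CPM in vehicle libraries. TFPI2 and STC2 did not pass the filter on low counts in 6 libraries.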

How the data were processed

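Poly(A) RNA from 12 cultures was made into stranded 3′-end libraries with a poly(dT) primer carrying a molecular identifier, per the labels' protocols. The submitters' processing notes name fastp 0.24.0, featureCounts and GRCh38; which aligner, annotation release and strand setting were used, and whether identifiers were collapsed, is not given in the sources used here. Estimated counts, some not whole, and CPM were deposited by the authors in 1 table, and the CPM equalled count over library total. Spike-in rows (92, all at 0 counts) were left out. The floor of 3 counts marks detection only, and levels above it still carry counting error.

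Counts of the 6 compared libraries were rounded and tested with the edgeR 4.0.16 quasi-likelihood test (TMM, filterByExpr, R 4.3.3), with group as the sole term and Benjamini-Hochberg adjustment over 2372 genes at a threshold of 0.05. The 6 alone entered because the deep libraries vary less. Coordinates are GENCODE 29, matched by gene ID. The tests were tested on simulated data. Members, lists and tests were chosen with earlier results of these data known. Named genes are an 18-gene panel, the 6 smallest p in each direction (as under 5 genes were called), the 2 most abundant tested genes of each list with at least 3 tested, and the 10 most abundant genes; other genes, all those picked for not overlapping or for a call in another fit included, were chosen after their values were seen. Of 834 list genes 833 matched and 439 were tested. Single values of a few genes are not reported here.

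A batch tag in the labels repeats the replicate number. Same-numbered deviations from the group means had r of -0.468, -0.366 and 0.116, and the fit with the number as a block called 0 genes too. Replicates are labelled biological; if they share a differentiation, p-values measure only the spread between these cultures. Alternatives were DESeq2 1.42.0, limma 3.58.1 voom without and with quality weights, RLE scaling, 2 other filters, a replicate block, all 12 libraries, thinning to 80000 counts, the 2 libraries under 100000 counts left out, mitochondrial genes left out, each library left out, and, added later, the log2 total as a covariate. Plots used matplotlib 3.10.9 (Python 3.11.15).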

Additional observations from a re-analysis of the deposited data

How the results depend on the processing

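The count of called genes was 0 in the 6-library edgeR fit, 0 with RLE scaling, limma-voom, a mean of at least 50 counts, mitochondrial genes left out or thinning, and 0 with the replicate block (82 at an unadjusted p under 0.05). It was 2 with DESeq2, 1 with quality weights, 15 without a filter (all lower), 20 with all 12 libraries, 12 with the log2 total as a covariate and 151 without the 2 libraries under 100000 counts. With single libraries left out it ran between 0 and 7: 7 without vehicle replicate 2 (VCAN, NEBL, PITPNM1, MT2A, IGFBP3, ACTC1 and TMSB4X), 1 without vehicle replicate 1 (MT2A) and 0 without each of the other 4. The cause of these differences was not tested.

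Of 1624 single-gene values under the alternatives, for 93 genes, 1474 kept their direction and their side of the threshold, 74 passed it and 76 turned sign, in 29 genes, with a size of at most 0.56 on the log2 scale. The log2 fold changes that turned sign follow by setting. With all 12 libraries they were ATP2A2 0.0055, COL1A1 0.016, MT-ND4 0.028, MT-ATP8 0.032. With limma-voom they were COL3A1 0.16, MT-ND4 0.13, KRT8 -0.031. With quality weights they were COL3A1 0.032, KRT8 -0.097. With the log2 total as a covariate they were ACTA1 0.069, ACTA2 0.19, ANKRD1 0.24, HAND2 -0.12, COL1A1 0.45, COL3A1 0.52, MT-ND4 0.45, PKM 0.19, PHGDH 0.054, CDKN1A 0.12, HDAC5 0.22, MT-RNR2 0.13. With the replicate block they were COL3A1 0.090, MT-ND4 0.10, HDAC5 0.059, KRT8 -0.025. After thinning they were RPS27L -0.14, ENO1 -0.050, HDAC5 0.033, SCD -0.0056, UBB -0.078, KRT18 -0.021. Without the 2 libraries under 100000 counts they were TNNT2 -0.19, MYL7 -0.20, HAND2 -0.011, COL1A1 0.095, SLC25A3 0.055, PHGDH 0.026, HSPB7 -0.18, FDPS 0.19. With single libraries left out the log2 fold change ran over 0 for MYH6 -0.30 to 0.057, ACTA2 -0.58 to 0.16, TNNT2 -0.22 to 0.48, MYL7 -0.087 to 0.57, ANKRD1 -0.59 to 0.14, ATP2A2 -0.63 to 0.34, HAND2 -0.56 to 0.93, COL1A1 -0.33 to 0.41, COL3A1 -0.44 to 0.42, MT-ND4 -0.34 to 0.33, MT-ATP8 -0.48 to 0.37, PKM -0.34 to 0.17, PHGDH -0.44 to 0.13, ALDOA -0.068 to 0.44, HDAC5 -0.33 to 0.27, FDPS -0.41 to 0.11, UBB -0.10 to 0.29, H19 -0.35 to 0.66, KRT8 -0.25 to 0.45, KRT18 -0.019 to 0.11, MT-RNR2 -0.77 to 0.033, ENSG00000294171 -0.35 to 0.66. Of 622 list medians, 118 moved by more than 1 SD between libraries. The cause of these moves was not tested.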
